A study of Arabidopsis thaliana with 25 samples.

Results

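The 7 genes described here regulate the greening of Arabidopsis thaliana seedlings. They are the transcription factor genes GLK1 (AT2G20570) and GLK2 (AT5G44190), the GATA factor genes GNC (AT5G56860), CGA1 (AT4G26150), GATA2 (AT2G45050) and GATA4 (AT3G60530), and GUN1 (AT2G31400), whose protein works inside the plastid. They were chosen by name, and the rule that chose them uses no measured value, but earlier results of these data were known when they were chosen. All 7 were among the 38676 Arabidopsis entries of the count table, and all 7 passed the filter on low counts that left 20615 entries for testing.

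Cotyledons, the seed leaves, of wild-type (WT) seedlings were dissected after acetone fixation and measured by stranded paired-end RNA-seq. Group D had grown for 5 days in darkness, and groups 1h, 6h and 24h were such dark-grown seedlings given 1, 6 or 24 hours of continuous light. Group L had grown for 5 days in long days on the same medium. It is not a later point of the light course, and lists of times or steps below place it after 24h for order only. Each group held 5 libraries numbered as biological replicates 1 to 5, and Drosophila cells were added to every sample at extraction. There was no dark group of the same final age, so light, time of day and age cannot be told apart in the time course. L differs from 24h in day length, in the length of light, in age and in having had no 5 days of darkness first. These differences cannot be told apart either. The labels do not say how replicates were grown or pooled, and p-values refer to the spread among these libraries, which may be technical.

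As background, GLK1 and GLK2 are a pair of GARP-family (MYB-like) factors that act redundantly and bind the genes of the light-harvesting antenna and of chlorophyll synthesis. GNC and CGA1 are GATA factors with a C-terminal LLM motif that promote chlorophyll accumulation and chloroplast division, and phytochrome-interacting factors (PIFs) repress them in the dark. GATA2 and GATA4 belong to another GATA class. GATA2 is known as a promoter of light-type development that is held back by brassinosteroid signalling through BZR1 and by the ubiquitin ligase COP1. GUN1 is a pentatricopeptide repeat protein of the plastid through which a damaged or undeveloped plastid lowers nuclear photosynthesis genes, GLK1 among them.

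In the RefSeq TAIR10.1 assembly GLK1 lies at chr2:8855302-8857758, GLK2 at chr5:17798262-17800926, CGA1 at chr4:13253084-13255106, GATA2 at chr2:18582697-18584127 and GATA4 at chr3:22373013-22374554 on the plus strand, and GNC at chr5:22989216-22991530 and GUN1 at chr2:13386954-13390854 on the minus strand. The sequences below were read from that assembly and show why the paralogues can be counted separately and how the GATA classes differ. The zinc finger of each GATA factor is given as coding sequence, 5′ to 3′, with the codons of the 4 zinc-binding cysteines in capitals, and all 4 genes have 18 codons between the inner cysteines.
GNC: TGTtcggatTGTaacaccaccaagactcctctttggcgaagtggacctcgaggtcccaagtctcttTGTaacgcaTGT
CGA1: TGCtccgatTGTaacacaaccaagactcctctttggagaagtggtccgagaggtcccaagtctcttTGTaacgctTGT
GATA2: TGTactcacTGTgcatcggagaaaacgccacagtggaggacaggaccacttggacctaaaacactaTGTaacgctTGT
GATA4: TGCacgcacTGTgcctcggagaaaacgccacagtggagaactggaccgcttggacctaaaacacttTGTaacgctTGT
The fingers lie at chr5:22990322-22990381 and chr5:22990056-22990073 on the minus strand for GNC, at chr4:13253892-13253951 and chr4:13254261-13254278 on the plus strand for CGA1, at chr2:18583591-18583668 on the plus strand for GATA2, and at chr3:22373902-22373979 on the plus strand for GATA4. In GNC and CGA1 an intron between coding exons 2 and 3 splits the finger, and in GATA2 and GATA4 it lies whole in coding exon 2. Over the 78 bases, GNC and CGA1 were 89.7% identical and GATA2 and GATA4 91% identical, while fingers of different classes shared 59% to 66.7% of their bases.

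For the GLK pair, the closest stretch of the coding sequences is shown, 90 bases long, with the bases that differ in capitals.
GLK1: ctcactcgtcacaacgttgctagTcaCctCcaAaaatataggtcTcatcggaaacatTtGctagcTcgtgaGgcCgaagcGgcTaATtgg
GLK2: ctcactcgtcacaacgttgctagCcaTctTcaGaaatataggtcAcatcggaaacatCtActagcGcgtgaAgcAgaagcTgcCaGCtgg
These 2 sequences are identical at 76 bases (84.4%) and lie within chr2:8856405-8856572 and chr5:17799371-17799659, both on the plus strand and each in 2 exon parts. Over the whole aligned coding sequence the identity was 68.3% for GLK1 and GLK2, 77.5% for GNC and CGA1 and 78% for GATA2 and GATA4, with no shared run longer than 25 bases. No exonic run of 50 bases in any of the 7 genes occurred elsewhere in the genome, none of the 7 overlaps another annotated gene, and none was part of an entry that merges several genes.

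Libraries held 17901840 to 24085995 counts. Levels are given as spike-scaled CPM, the usual CPM with the library size set by the Drosophila counts, so that they follow the amount of transcript relative to the added cells. Drosophila genes took 1.21% to 4.04% of the counts in D and 0.185% to 0.429% in L, and the median tested gene was 2.35 higher in L than in D on the log2 scale. TMM scaling over Arabidopsis genes, which sets the bulk of the genes level, is given beside it, since the median of all genes then moves down by 0.02, 0.56, 1.22 and 2.37 at 1h, 6h, 24h and L against D. Replicates 1 and 2 had 0.549% to 4.09% of their counts in plastid-encoded genes and replicates 3 to 5 had 3.83% to 16%, and the labels name no cause for these 2 sets. In D the sets also differed in the Drosophila share, at 4.045% and 2.871% in replicates 1 and 2 and 1.21% to 1.548% in replicates 3 to 5. A larger Drosophila share lowers the spike-scaled level of every gene in that library. Spike-scaled changes against D within a set carry this difference, and its part in them was not tested. As CPM of the Arabidopsis counts, the 8 root markers summed to at most 2.84 in every library. The 8 shoot meristem markers summed to 13.3 to 24.4 in D and 0.508 to 4.57 in L on that scale. As spike-scaled CPM the meristem sums overlapped, at 3.37 to 16.1 in D and 2.12 to 10.1 in L. The spike-scaled root sums were 0.382 to 1.31 in D and 1.77 to 12.4 in L. The 4 epidermis and 6 vascular markers were present in every group. The part of these marker changes in the results below was not tested, and in dissected organs fewer cells of a type and less RNA per cell cannot be told apart.

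On the spike-in scale, CGA1 and GLK2 were called higher and GATA2 and GATA4 lower within 1 hour of light. GLK1 and GUN1 were called higher at 24h and in L, and GNC was called in L alone. Calls are adjusted p-values under 0.05 (Benjamini-Hochberg) in edgeR's quasi-likelihood test across all 20615 entries. At 1h against D, 2 members were called higher and 2 lower, where 3.06% of all entries were called higher and 0.994% lower. The members' counts at 6h against D were again 2 and 2, where all entries had 21.4% and 5.05%. At 24h against D, 4 were higher and 2 lower (all entries 50.3% and 3.76%), and in L against D, 5 were higher and 2 lower (all entries 84.9% and 1.96%). A higher call in L was thus the common case among all entries, and a lower call was rare. The same dark libraries serve as the control of all 4 comparisons.

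**Figure D1:**
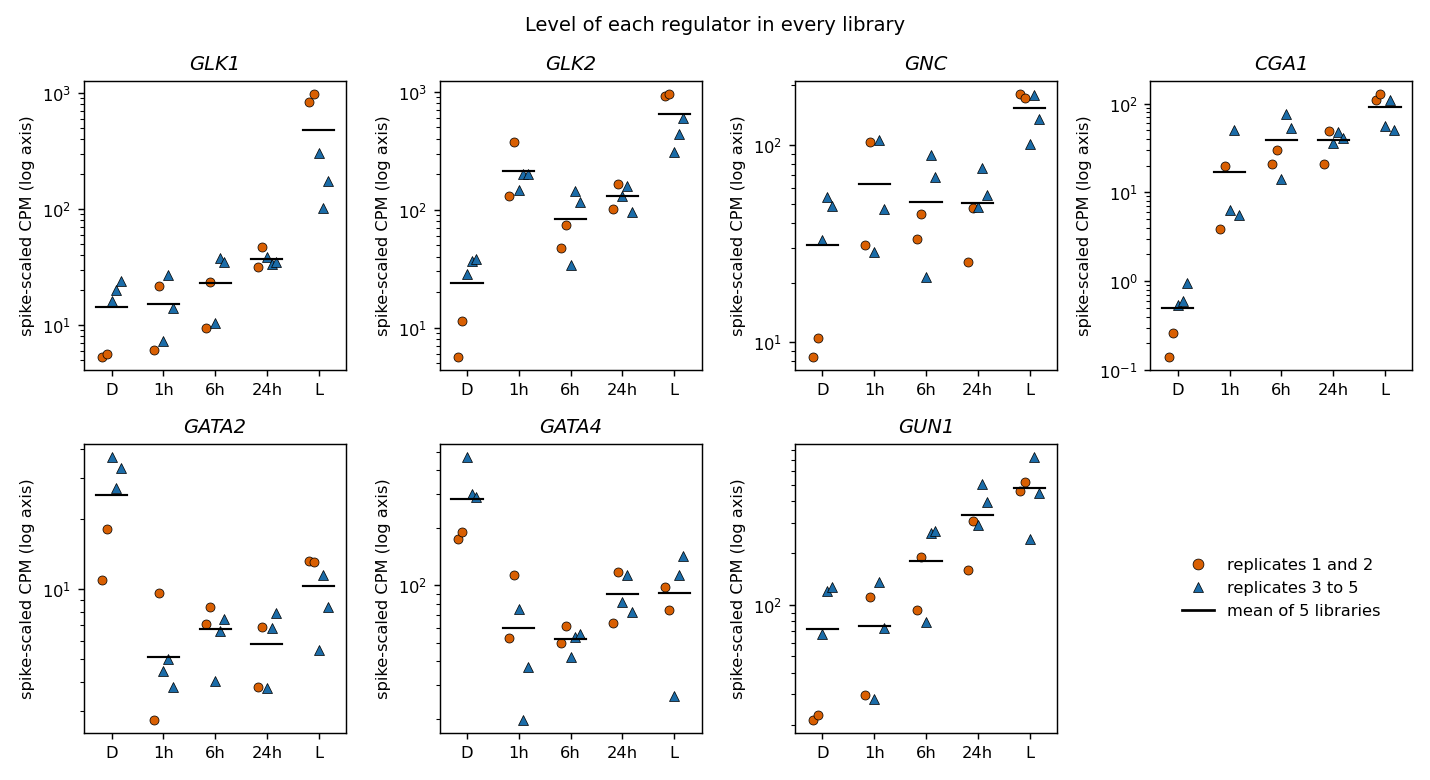
Spike-scaled CPM (log axis) of the 7 genes in every library of D, 1h, 6h, 24h and L, with circles for replicates 1 and 2, triangles for replicates 3 to 5 and a line at the mean of 5 libraries. CGA1 rises from a mean of 0.496 in D to 91.5 in L, and GATA4 falls from 284 in D to 59.5 at 1h.

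Under TMM the counts against D were 3 higher and 2 lower at each of the 4 times. Of all entries, 8.94% were then called higher and 5.21% lower at 1h, 26.9% and 25.9% at 6h, 27% and 27.8% at 24h, and 28.6% and 28.1% in L. CGA1, GLK2, GATA2 and GATA4 kept their direction and their call under both scalings at every time. GLK1 at 24h, GNC in L and GUN1 in L were called on the spike-in scale and not under TMM, and GNC at 1h and GUN1 at 6h were called under TMM and not on the spike-in scale.

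**Figure D2:**
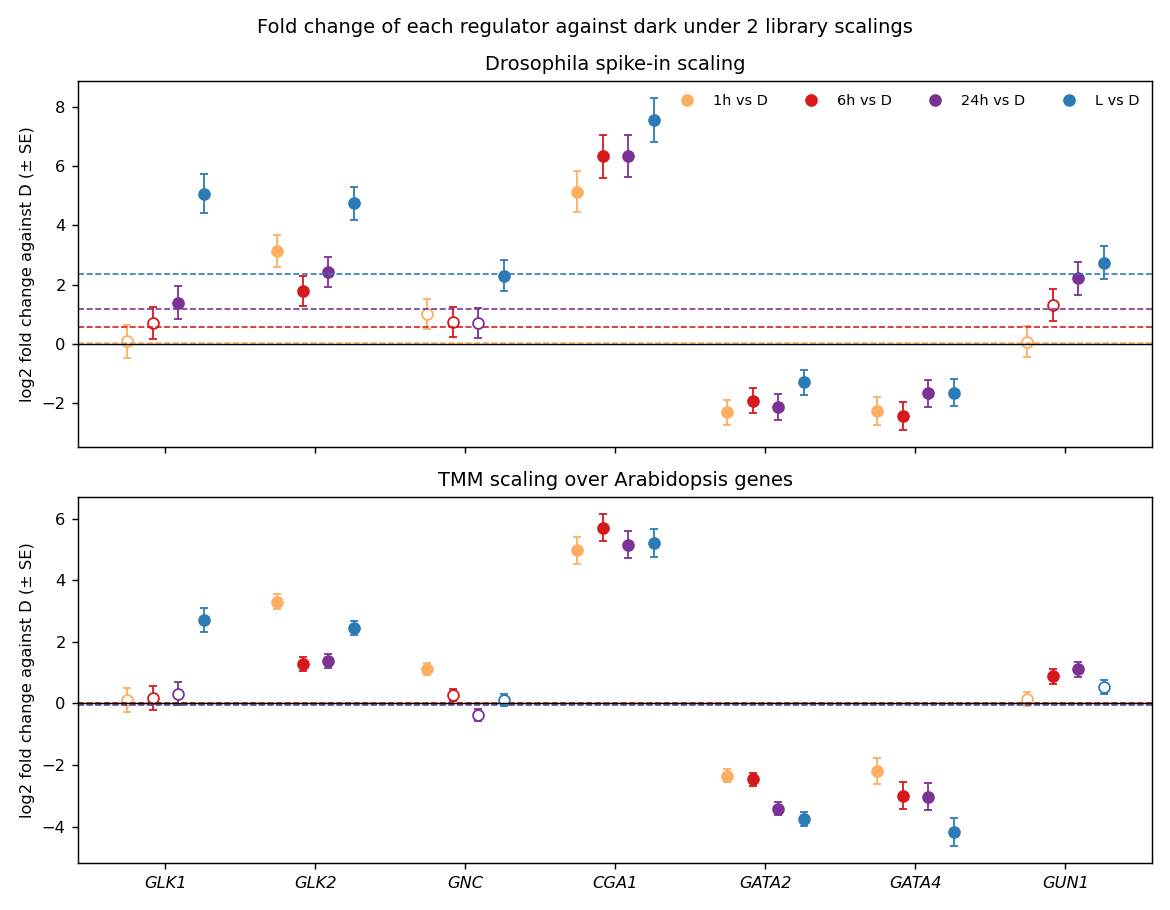
Log2 fold change of the 7 genes against D with its standard error, by edgeR with spike-in scaling (upper) and TMM scaling (lower), for 1h, 6h, 24h and L. Filled points were called, open points were not, and dashed lines are the medians of all tested entries, which reach 2.35 in L on the spike-in scale; GATA2 and GATA4 lie below 0 in both panels.

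Of the steps after 1h between groups listed next to each other, the one from 24h to L held member calls on the spike-in scale. From 1h to 6h no member was called (unadjusted p under 0.05 for 2 higher and 1 lower; DESeq2 with Drosophila size factors called 1 lower), where 13.6% of all entries were called higher and 3.12% lower. From 6h to 24h none was called, also none at an unadjusted p under 0.05 and none by DESeq2 with those size factors, against 6.82% and 0.412% of all entries. From 24h to L, GLK1, GLK2 and GNC were called higher and none lower (by unadjusted p under 0.05, 4 and 0; by DESeq2 with those size factors, 3 and 0), against 52.5% and 0.514% of all entries. TMM called 1 higher and 2 lower from 1h to 6h (all entries 21.2% and 23.3%), 0 and 2 from 6h to 24h (9.54% and 7.57%), and 2 and 0 from 24h to L (5.98% and 4.65%). Replicate numbers were taken to pair the libraries in the time course, and with the replicate as a block 2 members were called higher and 1 lower from 1h to 6h. The remaining pairs of groups serve only to order the levels of a member; there, 48% of all entries were called higher and 2.97% lower from 1h to 24h, 85.5% and 1.36% from 1h to L, and 80.9% and 0.728% from 6h to L.

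Per kilobase of exon, GATA4 had the highest level of the 7 in D, at 194 ± 80.4 spike-scaled CPM per kb (SD, n = 5), and CGA1 the lowest, at 0.304 ± 0.193. GUN1, GATA2, GNC, GLK2 and GLK1 lay between 8.24 and 20.7 on this scale in D. In L the order by mean was GLK2 at 372 ± 166 spike-scaled CPM per kb, GLK1 at 277 ± 231, GUN1 at 138 ± 50.2, GNC at 85.5 ± 19.2, GATA4 at 61.9 ± 29.8, CGA1 at 56.1 ± 21.7 and GATA2 at 7.74 ± 2.51. Neighbours in this order had overlapping SDs except CGA1 and GATA2, and levels of different genes were not tested against each other.

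GLK2 responded first of the GLK pair. In D its level was 5.63, 11.3, 28.7, 36.5 and 38.3 spike-scaled CPM in replicates 1 to 5, and at 1h it was 130.5, 377, 148, 199.7 and 202.4. Every 1h library lay above every dark library, a log2 fold change of 3.14 ± 0.53 (SE; 8.79-fold; adjusted p = 0.000143), larger than that of 98.9% of the entries tested. At 6h the level was 47.4, 73.9, 34.1, 143.7 and 117.5 spike-scaled CPM, overlapping D in replicate 3 but still called against D at 1.79 ± 0.50 on the log2 scale (adjusted p = 0.00762). Each 6h library lay below the 1h library of the same number, by 1.34 ± 0.49 on average on the log2 scale. This fall was not called on the spike-in scale (adjusted p = 0.0561), was called with the replicate block (adjusted p = 0.0227), without 6h replicate 4 (log2 fold change -1.63, adjusted p = 0.0481) and under TMM (log2 fold change -2.01, adjusted p = 4.26e-07).

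At 24h GLK2 stood at 101.2, 165.3, 130.8, 159.5 and 96.0 spike-scaled CPM, above every dark library (log2 fold change 2.44 ± 0.51, adjusted p = 0.000221). In L it stood at 918.5, 956.9, 311, 437.7 and 596.2, the highest mean of the 5 groups, with 4.74 ± 0.57 against D (26.8-fold; adjusted p = 1.05e-08) and 2.3 ± 0.51 against 24h (adjusted p = 0.00231) on the log2 scale. The order of the mean levels was D, 6h, 24h, 1h and L, in which 6h and 24h (adjusted p = 0.369) and 24h and 1h (adjusted p = 0.219) did not differ beyond their spread, and L exceeded 1h (adjusted p = 0.00357). Within replicates 1 and 2 the log2 fold change of L against D was 6.79, and within replicates 3 to 5 it was 3.70. From 24h to L it was 2.82 in the former (adjusted p = 0.00758) and 1.80 in the latter (adjusted p = 0.0712, not called).

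GLK1 did not share the early rise. Its level was 5.31, 5.70, 16.3, 19.99 and 24.1 spike-scaled CPM in D and 6.12, 21.6, 7.32, 27.2 and 14.0 at 1h, where the groups overlapped (log2 fold change 0.09 ± 0.55, adjusted p = 1). At 6h it was 9.49, 23.4, 10.3, 37.9 and 35.4, again overlapping D (0.71 ± 0.55, adjusted p = 0.355). At 24h it was 31.8, 47.3, 38.5, 33.7 and 35.3 spike-scaled CPM, above all dark libraries, and called at 1.39 ± 0.56 on the log2 scale (adjusted p = 0.0355), close to the median of all entries at that time (1.19). This call was lost without replicate 1, 2 or 3 of D (adjusted p = 0.0957, 0.0985 and 0.0516) or replicate 2, 3 or 4 of 24h (adjusted p = 0.0711, 0.0513 and 0.0502), within replicates 3 to 5 (log2 fold change 0.83, adjusted p = 0.242) and under TMM (0.32, adjusted p = 0.493).

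In L, GLK1 reached 833, 979, 306, 103.3 and 176 spike-scaled CPM, each above every library of the other 4 groups. The log2 fold change was 5.07 ± 0.65 against D (33.6-fold; adjusted p = 3.73e-08) and 3.68 ± 0.61 against 24h (adjusted p = 0.000188), and both remained called under TMM, at 2.71 (adjusted p = 4.42e-06) and 2.38 (adjusted p = 0.000608). The step from 24h to L was larger than that of 98.6% of the entries tested, although the L libraries ranged widely, with a mean of 906 in replicates 1 and 2 and 195 in replicates 3 to 5. Within the sets the log2 fold change of L against D was 7.36 and 3.28, and of L against 24h 4.52 and 2.44, all called. Under TMM within replicates 3 to 5 the step from 24h to L was not called (1.9, adjusted p = 0.0971). By mean, GLK1 rose in the order D, 1h, 6h, 24h and L, and of the neighbours in this order the last pair alone was called.

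Because the counts of both GLK genes come from the same library, their ratio does not depend on the spike-in or on the library size. GLK2 held 51.4%, 66.5%, 63.9%, 64.6% and 61.4% of the counts of the pair in D, and 95.5%, 94.6%, 95.3%, 88% and 93.5% at 1h. The pair went from a mixed state to one in which nearly all counts were GLK2, with no overlap between the groups. The log2 ratio of GLK1 to GLK2 fell by 3.24 ± 0.32 (SE) at 1h, by 1.18 ± 0.20 at 6h and by 1.1 ± 0.21 at 24h (two-sided exact permutation test over 252 assignments of 5 against 5 libraries, p = 0.00794 each, the smallest it can give; 0.0136 adjusted over 12 ratio tests). The share of GLK2 was 75.9% to 83.3% at 6h and 73.1% to 82.6% at 24h.

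In L the share of GLK2 was 52.4%, 49.4% and 50.4% in replicates 1 to 3 and 80.9% and 77.2% in replicates 4 and 5. The mean of 62.1% ± 15.6 (SD, n = 5) was close to that of D, 61.6% ± 5.95, and the log2 ratio differed from D by -0.11 ± 0.49 (exact permutation p = 0.786, adjusted 0.857). Without L replicate 4 this difference was 0.21 and without L replicate 2 it was -0.32, so its sign rests on single libraries. Within replicates 1 and 2 it was 0.48, and within replicates 3 to 5 it was -0.50.

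**Figure D3:**
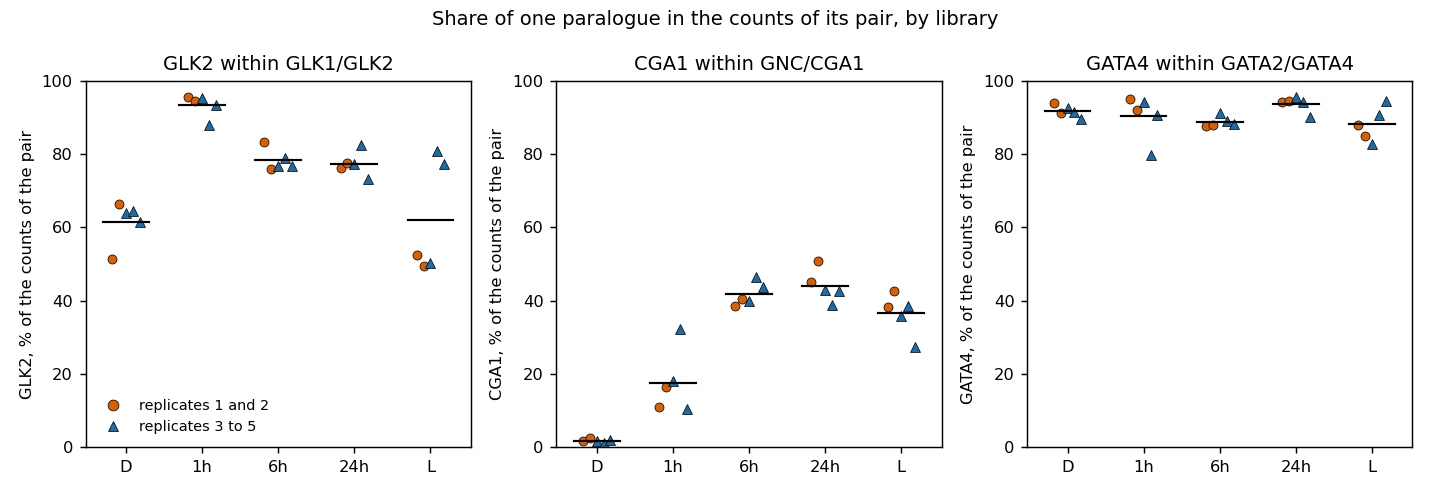
Share of GLK2, CGA1 and GATA4 in the summed counts of its pair, in percent, for every library of the 5 groups, with a line at the mean. GLK2 peaks at 88% to 95.5% at 1h, CGA1 goes from 1.09% to 2.44% in D to 38.6% to 46.5% at 6h, and GATA4 stays between 79.7% and 95.6%.

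CGA1 had the largest increase of the 7. In D its libraries held 15, 15, 19, 17 and 29 counts, or 0.140, 0.262, 0.533, 0.600 and 0.945 spike-scaled CPM. At 1h it was at 3.83, 19.97, 6.31, 50.04 and 5.50 spike-scaled CPM, so that the lowest 1h library was above the highest dark one. The log2 fold change was 5.14 ± 0.68 (35.3-fold; adjusted p = 3.98e-06), larger than that of 99.8% of the entries tested. Replicate 4 of 1h stood above the other 1h libraries of CGA1, and without it the log2 fold change against D was 4.19. At 6h CGA1 was at 21.0, 30.1, 14.1, 76.9 and 53.3 spike-scaled CPM and at 24h at 21.0, 49.6, 36.5, 48.4 and 41.0, which made 6.33 ± 0.72 (adjusted p = 3.7e-08) and 6.34 ± 0.72 (adjusted p = 1.1e-08) against D on the log2 scale.

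In L, CGA1 was at 111.3, 127.9, 56.3, 111.3 and 50.6 spike-scaled CPM, the lowest of them above the highest 24h library, with 7.56 ± 0.75 against D on the log2 scale (189-fold; adjusted p = 2.74e-10). By mean the order was D, 1h, 6h, 24h and L. Only the step from D to 1h was called between neighbours: 1h to 6h had an adjusted p of 0.142, 6h to 24h of 0.993 and 24h to L of 0.0647. The first of these was called with the replicate block (adjusted p = 0.0258) and without 1h replicate 4 (log2 fold change 2.14 in place of 1.19, adjusted p = 0.00873). The last was called without L replicate 3 (log2 fold change 1.35, adjusted p = 0.0482) and with the block (adjusted p = 0.0176). Same-numbered libraries of 24h and L did not all deviate together (lowest r 0.0315), so the block is not a shown pairing there. L exceeded 6h with an adjusted p of 0.0465. Under TMM, CGA1 was 4.97, 5.71, 5.15 and 5.21 above D at 1h, 6h, 24h and L on the log2 scale, all called.

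GNC, its closest paralogue, moved far less. In D it was at 8.40, 10.5, 32.9, 54.3 and 49.2 spike-scaled CPM and at 1h at 31.1, 102.8, 28.7, 105.8 and 47.4, with overlap between the groups (log2 fold change 1.02 ± 0.50, adjusted p = 0.43). As CPM of the Arabidopsis counts the groups did not overlap, at 34.5 to 74.8 in D and 77.7 to 157 at 1h, and TMM called the difference (log2 fold change 1.11, adjusted p = 0.000148). Within replicates 1 and 2 it was also called on the spike-in scale, at 2.82 (adjusted p = 0.00935), and within replicates 3 to 5 it was 0.42 (adjusted p = 0.644). GNC was at 33.4, 44.6, 21.3, 88.6 and 68.6 spike-scaled CPM at 6h and 25.6, 48.0, 48.6, 76.3 and 55.4 at 24h, neither called against D (log2 fold changes 0.73 and 0.71). Relative to other genes it declined after 1h: under TMM it was lower by 0.83 at 6h than at 1h (log2 fold change -0.83, adjusted p = 0.000938) and lower again at 24h than at 6h (-0.65, adjusted p = 0.0175). These 2 declines were not called on the spike-in scale, where they came to -0.30 and -0.02.

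In L, GNC was at 179.9, 172.4, 101.1, 177.5 and 134.7 spike-scaled CPM, above all dark libraries (log2 fold change 2.3 ± 0.52, 4.93-fold, adjusted p = 0.000149). This was the rise of the median entry (2.35), and under TMM it was 0.12 (adjusted p = 0.587, not called). The step from 24h to L was 1.59 ± 0.51 (adjusted p = 0.0168). That call was lost without 24h replicate 1 (1.42, adjusted p = 0.0582), within replicates 3 to 5 (1.2, adjusted p = 0.253) and under TMM (0.50, adjusted p = 0.089). By mean the order was D, 24h, 6h, 1h and L, in which the last pair alone was called (adjusted p = 0.0181).

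The counts of this pair shifted toward CGA1. CGA1 made up 1.64%, 2.44%, 1.60%, 1.09% and 1.89% of the summed GNC and CGA1 counts in D and 11%, 16.3%, 18%, 32.1% and 10.4% at 1h. At 6h it held 41.8% ± 3.24 (SD, n = 5), at 24h 44% ± 4.42 and in L 36.5% ± 5.68, and per exon length these shares were 44%, 46.3% and 38.6%. A transcript that was minor in D thus came near the level of its paralogue. The log2 ratio of GNC to CGA1 differed from D by -3.49 ± 0.41, -5.36 ± 0.21, -5.49 ± 0.22 and -5.03 ± 0.25 in time order (exact permutation p = 0.00794 each, adjusted 0.0136). Within replicates 1 and 2 these differences were -2.88, -4.95, -5.45 and -5.01, and within replicates 3 to 5 they were -3.89, -5.63, -5.51 and -5.04.

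The 5 other GATA genes with the LLM motif were described whatever their values. GATA15 went from 4.16 ± 1.88 spike-scaled CPM in D (SD, n = 5) to 7.92 ± 5.09 after 1h, 19.7 ± 8.53 after 6h, 25.4 ± 7.65 after 24h and 54.7 ± 20.4 under L. Its log2 fold change against D was 0.93 at 1h (adjusted p = 0.415), 2.24 ± 0.46 at 6h (adjusted p = 0.000394), 2.61 ± 0.47 at 24h (adjusted p = 2.78e-05) and 3.72 ± 0.49 in L (adjusted p = 6.19e-08). GATA15 was called under TMM at all 4 times, at 0.85, 1.61, 1.34 and 1.28 on the log2 scale. GATA16 was the only other one of these genes called at 1h on the spike-in scale, at 1.57 ± 0.46 (adjusted p = 0.0455), from 1.59 to 4.69 spike-scaled CPM. GATA17 rose by 1.97 ± 0.52 at 6h (adjusted p = 0.00449) and GATA17L by 1.37 ± 0.47 (adjusted p = 0.0286) on the log2 scale. GATA16, GATA17 and GATA17L were also called in L on the spike-in scale (2.61, 3.20 and 2.16), but under TMM GATA17 alone of the 3 was (0.75), and GATA17L came to -0.07. GATA23 held 6 counts over all 25 libraries and was not tested. Differences between CGA1 and these genes were not tested.

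**Figure D4:**
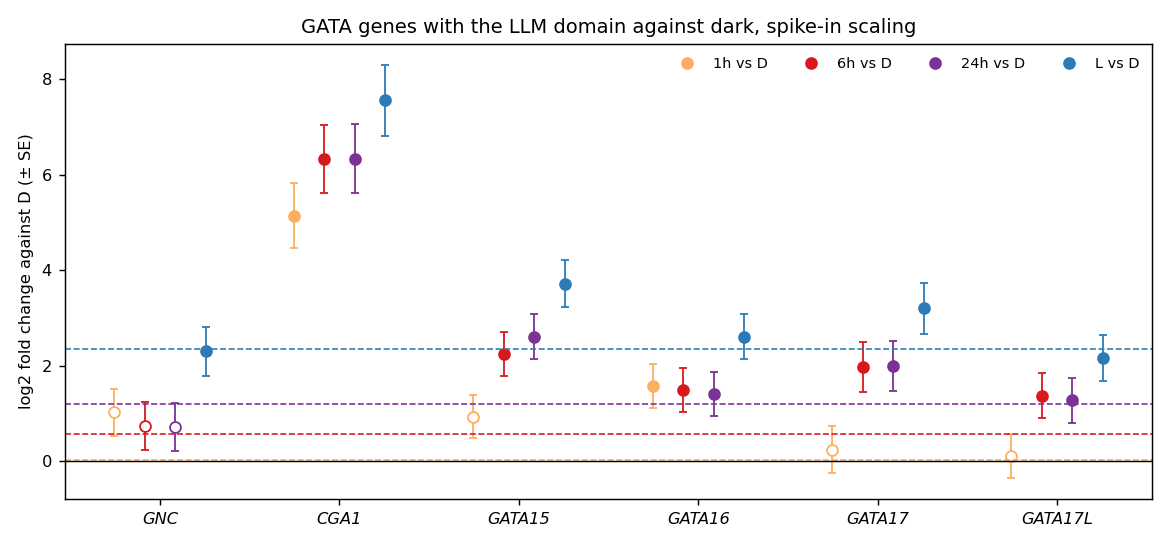
Log2 fold change against D with its standard error on the spike-in scale for GNC, CGA1 and the 4 tested other GATA genes with the LLM motif, at 1h, 6h, 24h and L. Filled points were called and dashed lines are the medians of all tested entries; CGA1 at 5.14 to 7.56 lies above the others at every time.

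Of the 26 other genes of the GATA family, 22 were tested. On the spike-in scale and in time order 1, 9, 16 and 21 of them were called higher than in D and 0, 1, 0 and 0 lower, and their median log2 fold changes were 0.12, 1.01, 1.49 and 2.70 where all entries had 0.03, 0.56, 1.19 and 2.35. TMM called 4, 12, 9 and 10 higher and 3, 2, 3 and 4 lower. Outside the LLM class, GATA8, also known as BME3, an activator of seed germination, rose by 2.25 ± 0.47 at 6h (adjusted p = 0.00045) and by 3.81 ± 0.50 in L (adjusted p = 5.3e-08), and GATA1 by 1.95 ± 0.43 at 24h (adjusted p = 0.000398). GATA7 (5.34 ± 0.58) and GATA27 (3.73 ± 0.51) were the other genes with the largest changes in L. A fall at all 4 times, as in GATA2 and GATA4, was called in none of the 22 on the spike-in scale. Under TMM, GATA11 (-0.76, -0.69, -1.15 and -1.13 in time order) and GATA12 (-1.41, -2.56, -2.11 and -1.96) were called lower at all 4 times as well, and both are named here after their values were seen.

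GATA2 and GATA4 fell within the first hour and stayed low. GATA4 was at 174, 190.6, 469.8, 298.7 and 288 spike-scaled CPM in D and at 52.9, 112.4, 75.1, 19.7 and 37.2 at 1h. Every 1h library lay below every dark library, with a log2 fold change of -2.26 ± 0.46 (4.78-fold lower; adjusted p = 0.00181). At 6h it was at 49.97, 61.3, 42.0, 53.7 and 55.4 spike-scaled CPM, at 24h at 63.1, 117.9, 81.5, 113.7 and 72.6, and in L at 98.1, 73.8, 26.4, 113.1 and 142.2, all below the lowest dark library. The log2 fold changes against D were -2.44 ± 0.47 (adjusted p = 0.000171), -1.66 ± 0.46 (adjusted p = 0.00302) and -1.65 ± 0.46 (adjusted p = 0.00132). Under TMM, with the other genes held level, they were -2.20 at 1h, -3.0, -3.03 and -4.18, all called. By mean the order was 6h, 1h, 24h, L and D, in which L and D alone differed beyond their spread.

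GATA2 was at 11, 18.1, 37.1, 27.3 and 33.1 spike-scaled CPM in D and at 2.74, 9.64, 4.45, 5.02 and 3.79 at 1h, with no overlap (log2 fold change -2.31 ± 0.43, 4.95-fold lower, adjusted p = 0.000479). It was at 4.03 to 8.41 spike-scaled CPM at 6h (-1.91 ± 0.42, adjusted p = 0.000858) and at 3.75 to 7.87 at 24h (-2.12 ± 0.43, adjusted p = 0.000129). In L it was at 13.3, 13.1, 5.50, 11.5 and 8.35, which overlapped D in replicate 1 of D (-1.29 ± 0.42, adjusted p = 0.00501). Under TMM the fall grew with time, from -2.35 at 1h to -2.46, -3.42 and -3.76 in L, and the step from 6h to 24h was called (-0.96, adjusted p = 0.00266). The rise from 24h to L, 0.83 on the log2 scale, was not called (adjusted p = 0.0838), and under TMM the difference was -0.34. On the spike-in scale it was called without L replicate 3 (0.99, adjusted p = 0.0407) and with the replicate block (0.87, adjusted p = 0.0422). The block is not a shown pairing for this step, as same-numbered libraries of 24h and L did not all deviate together. By mean the order was 1h, 24h, 6h, L and D, in which the last pair alone was called.

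The falls of GATA2 and GATA4 on the spike-in scale were smaller in replicates 1 and 2 than in the others, a difference that was not tested. In replicates 1 and 2 alone the log2 fold changes at 1h, 6h, 24h and L were -1.24, -0.90, -1.45 and -0.14 for GATA2 and -1.14, -1.71, -1.01 and -1.09 for GATA4, none called (adjusted p from 0.0608 to 0.852). In replicates 3 to 5 alone they were -2.88, -2.43, -2.40 and -1.95 for GATA2 and -3.0, -2.81, -1.98 and -1.91 for GATA4, all called. Under TMM both genes were called lower at all 4 times also in replicates 1 and 2 alone. For GATA2 the TMM values at 1h, 6h, 24h and L were -2.57, -2.44, -3.49 and -3.88 there and -2.20, -2.48, -3.37 and -3.67 in replicates 3 to 5. For GATA4 at 1h, 6h and 24h they were -2.33, -3.29 and -3.11 against -2.10 (not called), -2.77 and -2.96. The ratio of GATA2 to GATA4 changed little, as GATA4 held 91.9% ± 1.62 (SD, n = 5) of the counts of the pair in D, and 90.4% ± 6.23, 88.8% ± 1.48, 93.8% ± 2.07 and 88.2% ± 4.64 in the 4 light groups in time order. The log2 ratio passed at 6h alone, at 0.53 ± 0.18 (exact permutation p = 0.0159, adjusted 0.0238), with overlapping groups. Without any 1 of 6h replicates 1, 2, 4 and 5 it did not pass (0.49 to 0.54, adjusted p = 0.0595 each). The ratios at 1h, 24h and L differed from D by 0.09, -0.44 and 0.53 (adjusted p = 0.873, 0.159 and 0.21). Of these, 24h passed without 24h replicate 5 (-0.63, adjusted p = 0.0212) and L without L replicate 5 (0.80, adjusted p = 0.0317).

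GUN1 transcripts rose later, with no called rise at 1h. In D the level was 21.3, 22.6, 67.6, 120.9 and 126.5 spike-scaled CPM, at 1h 29.7, 111, 28.1, 134.8 and 73.5, and the groups overlapped (log2 fold change 0.07 ± 0.52, adjusted p = 1). At 6h it was 92.8, 190.6, 79.1, 262.9 and 269.9, higher than D in every replicate pair but overlapping over the groups. The log2 fold change of 1.32 ± 0.53 was not called (adjusted p = 0.0622). It was called with the replicate block (adjusted p = 0.013), under TMM (0.88, adjusted p = 0.00361), without 6h replicate 3 (1.51, adjusted p = 0.0347) and without D replicate 4 or 5 (1.59 and 1.62, adjusted p = 0.0344 and 0.0345). At 24h GUN1 was at 158.3, 307.6, 290.0, 506.2 and 394.8 spike-scaled CPM, above all dark libraries (2.21 ± 0.55, 4.62-fold, adjusted p = 0.00126).

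In L, GUN1 was at 459.3, 516.6, 241.1, 727.2 and 446.6 spike-scaled CPM (log2 fold change 2.74 ± 0.56 against D, adjusted p = 4.73e-05), overlapping 24h. L was higher than 24h by 0.53 ± 0.52 on the spike-in scale (adjusted p = 0.362) and lower by TMM (-0.58, adjusted p = 0.128), neither called. Under TMM GUN1 was called at 24h (1.11, adjusted p = 0.000443) and not in L (0.53, adjusted p = 0.063). As CPM of the Arabidopsis counts its mean was 130.1 in D, then 139, 198 and 203.2 along the time course, and 125 for L. By mean spike-scaled CPM the order was D, 1h, 6h, 24h and L, and no step between neighbours was called. The step from 1h to 6h (1.25, adjusted p = 0.0991), higher in all 5 replicate pairs, was called with the replicate block (1.29, adjusted p = 0.019) and under TMM (0.74, adjusted p = 0.015). Over wider steps, 24h exceeded 1h (adjusted p = 0.00216) and L exceeded 6h (adjusted p = 0.0161).

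A list of 22 genes tied to GUN1 in the literature, the other GUN loci, tetrapyrrole enzymes and partners of its protein, had 20 tested genes. The numbers called higher against D were 2, 11, 18 and 20 in time order, with 0 lower at each time, and the medians were 0.25, 1.42, 1.9 and 2.79 against 0.03, 0.56, 1.19 and 2.35 over all entries. Under TMM 3, 13, 13 and 11 were higher and 0, 1, 0 and 1 lower. GUN5, the H subunit of magnesium chelatase, rose by 1.9 ± 0.54 (adjusted p = 0.0357) and GUN4, its regulator, by 1.78 ± 0.49 (adjusted p = 0.0283) on the log2 scale at 1h, a time at which GUN1 itself was at 0.07. GUN4, GUN5 and CHLD also stand in the list of chlorophyll synthesis genes below, so they are counted in both lists. At 6h the plastid HSP70 chaperone gene CPHSC70-2 was among those with the largest changes (3.11 ± 0.67, adjusted p = 0.000713), from 46.3 to 398 spike-scaled CPM.

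Genes of the antenna and of chlorophyll synthesis, known targets of GLK factors, were also described. From 1h to 6h, 14 of 17 antenna genes were called higher and 0 lower, and 5 and 1 of 14 chlorophyll synthesis genes. Of the 17, 4, 15, 17 and 17 were called higher than in D in time order, with none lower and medians of 1.22, 3.19, 4.42 and 6.10 on the log2 scale, beside 0.03, 0.56, 1.19 and 2.35 over all entries. Under TMM 7, 15, 16 and 16 were called higher and none lower. LHCB2.1 went from 54.2 to 663 spike-scaled CPM at 1h (3.61 ± 0.59, adjusted p = 8.72e-05). LHCB1.1 had the largest change at each of the 4 times, from 5-library means of 15.3 in D to 266 at 1h (4.12 ± 0.71, adjusted p = 0.000213), though near-identical LHCB1 copies may share reads. Of 14 chlorophyll synthesis genes, 3, 10, 12 and 12 were higher and 0, 2, 2 and 2 lower, against TMM counts of 5, 11, 12 and 11 higher and 0, 2, 2 and 2 lower. The lower genes at 24h were PORA (-10.29 ± 1.08) and PORB (-4.27 ± 0.73), which encode protochlorophyllide oxidoreductases. CAO, the enzyme of chlorophyll b synthesis, was the most increased of the list at 1h (2.03 ± 0.51, adjusted p = 0.0141).

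A list of 23 genes known to act on these regulators was counted in the same way. In time order 3, 7, 15 and 18 were called higher than in D and 3, 4, 1 and 1 lower, with medians of -0.12, 0.56, 1.59 and 2.61 where all entries had 0.03, 0.56, 1.19 and 2.35. Of all entries 3.06%, 21.4%, 50.3% and 84.9% were called higher and 0.994%, 5.05%, 3.76% and 1.96% lower. Under TMM 6, 8, 9 and 10 were higher and 9, 8, 7 and 8 lower. HY5, a bZIP activator of light responses, rose with GLK2 at 1h (1.96 ± 0.50, adjusted p = 0.016), from 47.4 to 185 spike-scaled CPM, and was not called at 6h. PIF5, one of the phytochrome-interacting factors, also rose at 1h (1.99 ± 0.51, adjusted p = 0.0167). BBX17 fell by 1.85 ± 0.49 at 1h (adjusted p = 0.0196) and by 3.90 ± 0.53 at 6h (adjusted p = 1.08e-06) on the log2 scale, while its relative BBX16 went from 0.0323 spike-scaled CPM in D to 31.6 at 24h and 348 in L. Of the listed genes, 3 antenna, 3 upstream and 2 GUN-related genes also occur in merged entries, so their own counts are lower bounds.

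To show which genes varied most like each member, Pearson's r was taken over the 25 libraries with TMM-scaled log2 CPM, among 14204 other genes. These values share the 5 groups and their replicate structure and are descriptions. GLK1 was closest to HCT, an enzyme of lignin synthesis (r = 0.915), ABCG27 (0.905) and the vacuolar exchanger gene NHX2 (0.904), though by rank (Spearman's rho 0.698, 0.478 and 0.568) the likeness was lower. GLK2 was closest to CYP71B2 (0.937), the clock gene PRR9 (0.930) and STO, also named BBX24 (0.916). The group means of PRR9 had the same order as those of GLK2, at 0.750, 87.3, 3.24, 9.54 and 99.4 spike-scaled CPM in D, 1h, 6h, 24h and L. The sizes of the steps differed, as GLK2 stood at 24.1, 211.5, 83.3, 130.6 and 644.1. On the spike-in scale the r of PRR9 with GLK2 was 0.892, at rank 147. GNC had the lowest r of the members with its closest genes, AT4G29680 (0.881), NADK1 (0.834) and AT5G42620 (0.831). On the spike-in scale the r of these genes with GNC was 0.973, 0.944 and 0.944. CGA1 was closest to AT5G64850 (0.981), AT5G42760 (0.974) and AT3G52740 (0.966). GATA2 was closest to AT1G60060 (0.957), AT5G14360 (0.952) and the cytokinin oxidase gene CKX5 (0.952), and GATA4 to AT1G14890 (0.952), AT1G56090 (0.951) and AT5G18650 (0.948). For these GATA2 and GATA4 matches the likeness depended on the scaling, with r on the spike-in scale of 0.780 to 0.831 for those of GATA2 and of 0.869, 0.507 and 0.705 for those of GATA4. The spike-scaled means of AT1G56090 and AT5G18650 were higher in L (11.2 and 485 CPM) than in D (6.98 and 421 CPM), unlike that of GATA4. GUN1 was closest to OVA2, an organellar isoleucyl-tRNA synthetase gene (0.964), AT3G23310 (0.957) and AT1G30680 (0.940).

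Among the members themselves and under TMM, GATA2 and GATA4 were the most alike (r = 0.91), and each was the 26th closest gene of the other. Under TMM CGA1 ran opposite to both (r = -0.88 with GATA2 and -0.87 with GATA4), less so by rank (Spearman's rho -0.55 and -0.76). The paralogues GLK1 and GLK2 had r = 0.36 and GNC and CGA1 r = 0.20, so neither pair was among each other's closest genes. GNC was closer to GLK2 (r = 0.62), and GUN1 had its highest value among the members with CGA1 (r = 0.60). On the spike-in scale, where all genes of a library share its factor, the r of GLK1 and GLK2 was 0.78 and that of GNC and CGA1 was 0.76. There CGA1 had r = -0.44 with GATA2 and -0.58 with GATA4. The most alike members on that scale were GLK2 and GNC (0.89), with GATA2 and GATA4 at 0.81.

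The 250 bases before each annotated start were searched on both strands for the G-box CACGTG, the PIF-binding E-box CATGTG, the GLK motif CCAATC, the I-box GATAAG, which holds the GATA core, and the evening element AAAATATCT. Over the 7 genes there was 1 match, an I-box 49 bases before the start of GLK1 on the strand opposite to the gene. Of 27443 coding genes, 6.49%, 11.1%, 10.2%, 12.3% and 2.36% hold these motifs in the same window. A missing match says only that these letters are not in this window.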

How the data were processed

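Paired-end reads were counted per gene by the authors, and the deposited table holds whole-number counts of 53986 entries in 25 libraries, with Arabidopsis and Drosophila genes together. Tools listed in the submitters' processing notes are HTSeq, Salmon 1.9.0 and R 4.3.2, with the build TAIR10 and no order of steps. No annotation is named there. The 1539 entries of neither species were left out, and they held 0.119% to 0.741% of a library's counts.

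From these counts, library sizes were set by the 13771 Drosophila entries, then brought to the geometric mean of all Arabidopsis totals. Entries were tested in R 4.3.3 with edgeR 4.0.16 (glmQLFit and glmQLFTest, with all 25 libraries in 1 fit). The filter was filterByExpr (count at least 10, total at least 15), with Benjamini-Hochberg adjustment and a threshold of 0.05. The SE is the log2 fold change divided by the square root of F. Paralogue ratios were compared by exact permutation with a pseudocount of 0.5, adjusted over 12 tests. Sequences and positions came from the RefSeq TAIR10.1 assembly by gene identifier, and the table itself holds no coordinates. Settings that were varied are TMM (over Arabidopsis or Drosophila genes), DESeq2 1.42.0, the filter, the groups in the fit, the replicate block, each set of replicates, each library left out, and for ratios the pseudocount and the permutation scheme. TMM combined with the block or with each set of replicates was added after the data had been seen.

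Same-numbered libraries deviated together in every pair (r over 0.1) for each comparison among D, 1h, 6h and 24h tested (lowest r 0.212). This was not so for L against D or 24h (lowest r 0.0316 and 0.0315). The r was highest with the own number in 5 of 5 libraries for 1h against D and 24h against 6h. It was so in 4 for 6h against D and 6h against 1h, 2 for 24h against D, 0 for L against D and 2 for L against 24h. The replicate number was taken to pair the time course, and block results for L do not rest on such a pairing. The part of the 2 sets of replicates in these r values was not tested.

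Named were all 7 members, the 5 other LLM-motif GATA genes, the 3 genes most like each member, and from each list up to 3 called genes per comparison with the largest change and at least 10 spike-scaled CPM in the higher group, of which the text gives some. HY5, BBX17 and others come under this rule. The members and lists were chosen with earlier results of these data known. The total counts per library limit the precision, and low counts such as those of CGA1 in D carry the largest counting error.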

Additional observations from a re-analysis of the deposited data

How the results depend on the processing

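Under every alternative run on all 5 replicates, including each library left out, CGA1 and GLK2 stayed higher than D and GATA2 and GATA4 lower, at all 4 times and called. Most other values turn on the library scaling. Single genes whose sign differed from the spike-in result are given as log2 fold changes. Under TMM these were CGA1 -0.57, GATA4 -0.03 (both 24h against 6h), GATA2 -0.11 (6h against 1h), GATA2 -0.34, GATA4 -1.16, GUN1 -0.58 (all L against 24h) and GNC -0.38 (24h against D). DESeq2 with median-ratio size factors gave -0.56, -0.02, -0.08, -0.33, -1.16, -0.58 and -0.36 for the same, the fall of GATA4 from 24h to L then being called (adjusted p = 0.0362). TMM over Drosophila genes gave CGA1 -0.09 (24h against 6h) and GATA4 -0.10 (L against 24h). The replicate block, which pairs the libraries by replicate number, L included, gave GLK1 -0.02 (1h against D) and GNC 0.05 (24h against 6h). It also called GUN1 from 1h to 6h (1.29, adjusted p = 0.019), and beside the calls given in the report it changed no other call. With TMM the block gave CGA1 -0.48 (24h against 6h), GATA2 -0.11 (6h against 1h), GATA2 -0.34, GATA4 -1.06, GUN1 -0.60 (L against 24h, the last called) and GNC -0.35 (24h against D, called).

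Replicates 1 and 2 alone gave GATA4 -0.07 (L against 24h) and, with TMM, CGA1 -0.08 (24h against 6h), GATA2 -0.38, GATA4 -1.74 (called), GUN1 -0.61 (L against 24h), GNC -0.12 (24h against D) and GLK1 -0.05, -0.05 and -0.00 (1h against D, 6h against D, 6h against 1h). Replicates 3 to 5 alone gave CGA1 -0.20, GATA2 0.03 and GNC 0.01 (24h against 6h), GATA4 0.19 (6h against 1h), and GLK1 -0.32 and GUN1 -0.41 (1h against D). With TMM they gave CGA1 -0.82, GATA4 -0.18, GLK1 -0.27 and GLK2 -0.27 (24h against 6h), GATA2 -0.28 (6h against 1h), GATA2 -0.30, GATA4 -0.80 and GUN1 -0.56 (L against 24h), GNC -0.49 and GLK1 -0.00 (24h against D), and GNC -0.03 (L against D).

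Counts of members moved as follows. From 1h to 6h, where none was called, the higher count was 1 under TMM and DESeq2 with median-ratio factors and 2 with the block, and the lower count was 1 with the block, a term for the set of replicates, TMM over Drosophila genes and DESeq2 with Drosophila factors, and 2 under TMM and DESeq2 with median-ratio factors. With TMM added, the block had 2 higher and 2 lower, replicates 1 and 2 had 2 and 3, and replicates 3 to 5 had 1 and 2. From 6h to 24h the lower count, 0 as reported, was 2 under TMM, median-ratio factors and the block with TMM and 1 in each set of replicates with TMM. From 24h to L the higher count was 5 with the block, 1 in replicates 3 to 5 and 0 there with TMM, and the lower count was 1 under median-ratio factors, the block with TMM and replicates 1 and 2 with TMM. In L against D the higher count was 3 under TMM, also in replicates 3 to 5. At 6h against D it was 4 in replicates 1 and 2, with or without TMM. The lower count against D was 0 at all 4 times in replicates 1 and 2 and 1 at 1h in replicates 3 to 5 with TMM.

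The ratio differences of -3.24, -1.18 and -1.10 (GLK1 to GLK2 at 1h, 6h and 24h), -3.49, -5.36, -5.49 and -5.03 (GNC to CGA1 at all 4 times) and 0.53 (GATA2 to GATA4 at 6h) did not pass as a paired sign-flip test over 5 replicate pairs, whose smallest p is 0.0625 (adjusted p = 0.0833 each) and which cannot pass. With labels exchanged within the sets of replicates, the 0.53 did not pass (adjusted p = 0.05) and the others did.

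With single libraries left out the ranges were -0.22 to 0.37 for GLK1 and -0.25 to 0.38 for GUN1 (1h against D), -0.40 to 0.18 for GATA4 (6h against 1h), -0.21 to 0.41 for CGA1 and -0.21 to 0.27 for GNC (24h against 6h) and -0.21 to 0.25 for GATA4 (L against 24h). They were -0.32 to 0.21 for the ratio GLK1 to GLK2 in L, and for GATA2 to GATA4 -0.27 to 0.30 at 1h, 0.42 to 0.63 at 6h, -0.63 to -0.32 at 24h and 0.34 to 0.80 in L. Members called higher were 0 to 1 from 1h to 6h and 2 to 5 from 24h to L, and lower 0 to 1 from 1h to 6h. The cause of these changes was not tested. A check for merged entries could not be made, as no member occurs in one.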

Other observations

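At 1h, replicate 4 stood at the edge of its group for several of these genes. It had the highest CGA1 level of the 5 libraries (50.04 spike-scaled CPM, the others 3.83 to 19.97), the lowest GATA4 level (19.7, the others 37.2 to 112.4), the lowest share of GLK2 in its pair (88%, the others 93.5% to 95.5%) and the highest share of CGA1 in its pair (32.1%, the others 10.4% to 18%). GLK1 and GUN1 were also highest there. Dixon's test for a single outlying library (critical value 0.71) flagged no value in any of the 50 sets of 5 values examined. Its outcome depends on the scale of the values, so neither the levels nor the shares in percent given here are taken as cleared by it. As CPM of the Arabidopsis counts, CGA1 at 1h was at 74.3 in replicate 4 and at 13.4 to 22.9 in the others.

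In L, replicates 1 to 3 had nearly equal counts of GLK1 and GLK2, and replicates 4 and 5 had few of GLK1, 103.3 and 176 spike-scaled CPM against 306 to 979. This division does not follow the 2 sets of replicates that differ in plastid-encoded counts.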
